A study of Mus musculus with 4 samples.

Results

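The miR-29 family was measured through its 3p arms, mmu-miR-29a-3p, mmu-miR-29b-3p and mmu-miR-29c-3p, in the visWAT SVF of CL-treated and vehicle-treated mice. The members were taken by name from the annotation of the arrays, and the 3 arms are 3 of the 1247 mouse miRNAs printed there. The 4 passenger 5p arms of the family are described beside them. SVF is the stromal vascular fraction, the mix of progenitors, fibroblasts, vascular cells and blood cells that remains when collagenase-digested fat has been freed of its adipocytes, and visWAT is visceral white adipose tissue. Total RNA of this fraction was labelled with Cy3 and hybridised to 4 one-colour Agilent arrays, 2 of vehicle and 2 of CL. The CL group had received the β3-adrenoceptor agonist CL-316,243 in PBS at 1 mg/kg for 3 days, and the vehicle group PBS alone. The labels give subcutaneous treatment, female mice of 8 weeks and the strain C57/BL6, although the strain entries of the other arrays count upwards in their last digit. On the route the study's methods differ from the labels and give daily intraperitoneal injection of the agonist. Each array held the SVF of 5 mice, so that the spread between arrays is a spread between samples of several mice, and differences between single mice cannot be seen. The labels name no transgene or deletion in either group. The comparison asked which miRNAs of the stromal cells changed early in the browning of white fat.

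miRNAs of the miR-29 family are known as repressors of the extracellular matrix. Through their shared seed they pair with the mRNAs of several collagens, of fibrillin and of elastin, and TGF-β is known to lower them in fibroblasts during fibrosis. In adipose tissue they have also been linked to insulin signalling. A miRNA is cut from a hairpin that yields a 5p and a 3p arm, and in this family the 3p arm is the one that is loaded and acts while the 5p arm is mostly degraded. The arrays measured no mRNA, so that neither collagens nor other targets were read here.

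The mature 3p arms are shown first because the 3 members differ by only a few bases, which decides how well an array can separate them. The sequences are those of RefSeq on GRCm38.p6, written 5′ to 3′, with the seed, bases 2 to 8, in capitals.
miR-29a-3p: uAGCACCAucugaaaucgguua
miR-29b-3p: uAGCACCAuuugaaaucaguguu
miR-29c-3p: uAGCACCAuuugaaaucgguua
Of the 1017 miRNAs of the array with a mature sequence in RefSeq, only these 3 carry the seed AGCACCA. Counted from the 5′ end, miR-29a-3p differed from miR-29c-3p by the single substitution C10U. miR-29a-3p differed from miR-29b-3p at 4 of 22 compared bases, C10U, G18A, U21G and A22U. miR-29b-3p differed from miR-29c-3p by A18G, G21U and U22A, and it is 1 base longer, with 23 bases against 22. All differences thus lie outside the seed, in the middle and at the 3′ end.

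The arms come from 2 clusters of hairpins. On the minus strand of chromosome 6, Mir29a (31062660 to 31062747) and Mir29b-1 (31063023 to 31063093) are separated by 275 bases, and no other RefSeq gene overlaps them. On the plus strand of chromosome 1, Mir29b-2 (195037040 to 195037120) and Mir29c (195037547 to 195037634) are separated by 426 bases, and both lie inside the span of the lncRNA gene A330023F24Rik. Within GRCm38.p6, the mature miR-29a-3p was at chr6:31062673-31062694 and miR-29c-3p at chr1:195037600-195037621. miR-29b-3p is made from both clusters, from chr6:31063025-31063047 and from chr1:195037091-195037113, with the same 23 bases, so that the array cannot tell from which hairpin its signal came.

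Each 3p arm was read by 2 probes of 20 spots each. The longer probe of each arm is shown to make plain which bases tell the arms apart; bases in capitals pair with bases that differ in at least 1 of the other arms.
miR-29a-3p probe of 20 bases: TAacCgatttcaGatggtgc
miR-29b-3p probe of 21 bases: AACacTgatttcaAatggtgc
miR-29c-3p probe of 22 bases: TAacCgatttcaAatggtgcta
All 6 probes paired over their whole length with their own arm. In the same register, the miR-29a-3p probes had 1 mismatch to miR-29c-3p and 4 to miR-29b-3p, and the miR-29c-3p probes 1 to miR-29a-3p and 3 to miR-29b-3p. The miR-29b-3p probes had 4 mismatches to miR-29c-3p and 5 to miR-29a-3p, the last base of miR-29b-3p, which the shorter arms lack, included. How much of each signal came from a relative with 1 mismatch was not tested.

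All 3 arms were bright on every array before any normalization. The mean of 1000 negative control spots per array lay between 31.7 and 38.6 intensity units. The 20-base probe of miR-29a-3p had a median spot signal of 6480 (vehicle 1), 4360 (vehicle 2), 6243 (CL 1) and 7137 (CL 2). Vehicle 2 was the dimmest array, and CL 1 lay below vehicle 1, so that the groups overlapped. The 22-base probe of miR-29c-3p showed the same order, with 1080 (vehicle 1), 570.1 (vehicle 2), 974.0 (CL 1) and 1126 (CL 2). The 21-base probe of miR-29b-3p had 2080 (vehicle 1), 541.0 (vehicle 2), 3194 (CL 1) and 3454 (CL 2). For this arm alone of the 3, both CL arrays were above both vehicle arrays in the signals as scanned. Against vehicle 1 the raw signal of this probe was 1.54-fold on CL 1 and 1.66-fold on CL 2, whereas against vehicle 2 it was 5.90-fold and 6.38-fold. The shorter, 20-base probe of miR-29b-3p repeated the order at a lower brightness, with 298.0 and 88.9 for vehicle 1 and 2 and 428.8 and 461.9 for CL 1 and 2.

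**Figure D1:**
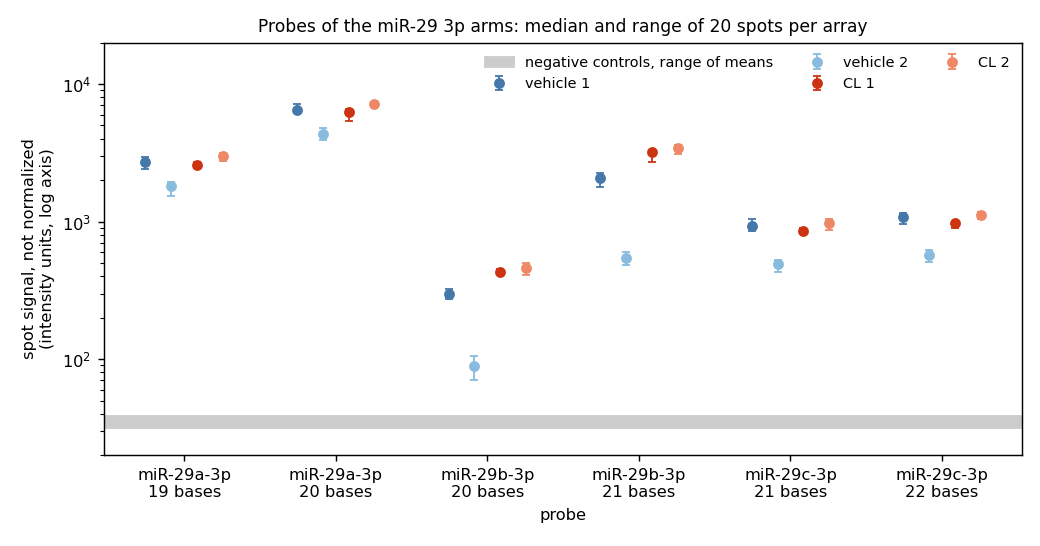
Median spot signal (points) and range over the 20 spots (bars) of the 6 probes of the miR-29 3p arms on each array, in intensity units on a log axis and without normalization, with the grey band at the means of the negative controls. Vehicle 2 is the dimmest array for every probe, and the CL arrays lie above both vehicle arrays for the probes of miR-29b-3p but not for those of miR-29a-3p or miR-29c-3p.

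The 2 probes of an arm can show whether an arm is read the same way on each array, since they share the molecule and differ by 1 base in length. For miR-29a-3p the longer probe was 2.37 to 2.42 times as bright as the shorter one over the 4 arrays, and for miR-29c-3p 1.15 to 1.17 times. For miR-29b-3p the ratio was 6.98 (vehicle 1), 6.08 (vehicle 2), 7.45 (CL 1) and 7.48 (CL 2). These signals still hold background, which weighs most on the dim shorter probe. With background subtracted by the scanner software, the longer probe had medians of 2046 (vehicle 1), 510.7 (vehicle 2), 3158 (CL 1) and 3423 (CL 2). The shorter probe had 261.5, 58.8, 391.0 and 430.9 in the same order. The ratio on vehicle 2 was then no longer the lowest.

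After background correction, quantile normalization and summary over the spots, mmu-miR-29b-3p was the arm that differed most between the groups. Its normalized signal on the log2 scale was 9.41 (vehicle 1), 7.66 (vehicle 2), 10.27 (CL 1) and 10.25 (CL 2). Both CL arrays were above both vehicle arrays and lay close together, while the vehicle arrays stood far apart. The group means were 8.54 ± 1.23 for vehicle and 10.26 ± 0.01 for CL (SD, n = 2 arrays each). The difference was 1.72 on the log2 scale with a standard error of 0.60 in limma's moderated test, or 3.30-fold with a 95% interval from 1.09 to 10.0. Its p was 0.0400, which became 0.135 after Benjamini-Hochberg adjustment over the 425 tested miRNAs, so that miR-29b-3p did not pass the adjusted threshold of 0.05. The test was limited to miRNAs that the scanner had marked as detected throughout at least 1 of the groups, and all 3 members passed this filter, each detected on 4 of 4 arrays. At the adjusted threshold, 0.0% of the tested miRNAs were called by limma, against 34.8% at an unadjusted p of 0.05, of which 18.6% were higher and 16.2% lower after CL. Of the 3 members, miR-29b-3p alone was past the unadjusted threshold. Its change was the fifth highest of the 425. In RNA of a whole fraction, more cells of a type and more miRNA per cell cannot be told apart.

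mmu-miR-29a-3p and mmu-miR-29c-3p had smaller differences of the same sign. mmu-miR-29c-3p measured 9.75 (vehicle 1), 9.07 (vehicle 2), 9.96 (CL 1) and 10.07 (CL 2). mmu-miR-29a-3p measured 11.90 and 11.44 for vehicle 1 and 2 and 11.97 and 12.04 for CL 1 and 2. For both arms the CL arrays were above both vehicle arrays, but for miR-29a-3p CL 1 exceeded vehicle 1 by only 0.08. This order depended on the normalization. Without normalization between arrays, CL 1 lay below vehicle 1 for miR-29c-3p (9.81 against 9.95) and miR-29a-3p (11.97 against 12.04). Median centring also put CL 1 below vehicle 1 for miR-29c-3p (9.65 against 9.71), but not for miR-29a-3p. After quantile normalization the difference was 0.60 on the log2 scale for miR-29c-3p (standard error 0.26, 95% interval −0.09 to 1.30, limma's adjusted p = 0.177). For miR-29a-3p it was 0.34 (standard error 0.19, 95% interval −0.17 to 0.85, limma's adjusted p = 0.257). Neither passed the unadjusted threshold, with p-values of 0.0746 and 0.145 in limma's test. Among the 425 changes ordered from the highest, miR-29c-3p ranked 58 and miR-29a-3p 108. That the CL arrays lie above both vehicle arrays is common on these arrays: 38.1% of the tested miRNAs had this order and 72.9% had groups that did not overlap in one direction or the other. The exact permutation test over the arrays, two-sided, gave 0.333 for each of the 3 arms, the smallest p that 2 against 2 arrays allow.

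**Figure D2:**
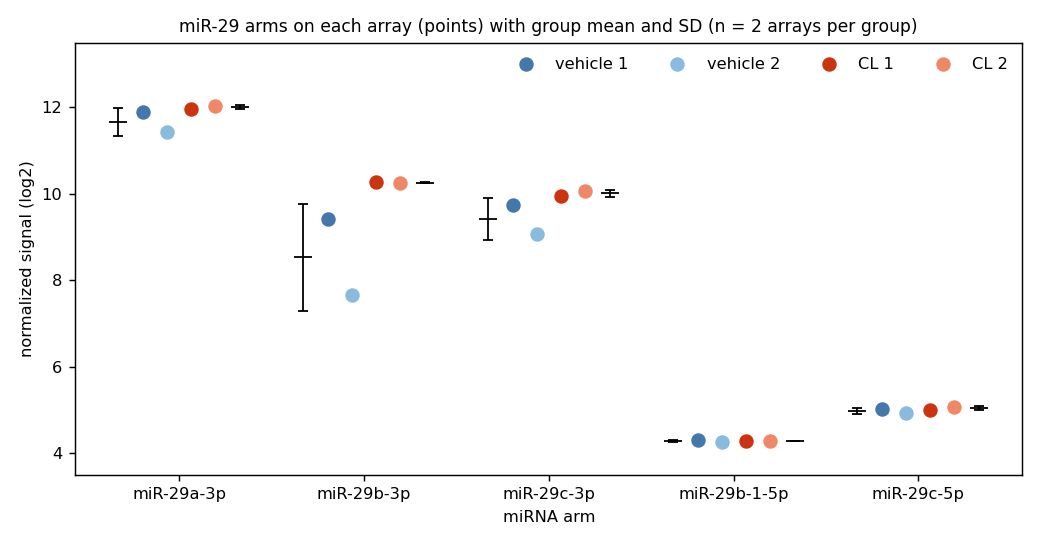
Normalized log2 signal of the 3 miR-29 3p arms and of 2 passenger arms on each array (coloured points), with the group mean and SD over 2 arrays (black). The vehicle arrays of miR-29b-3p lie at 9.41 and 7.66, far below and farther apart than its CL arrays at 10.27 and 10.25, and the passenger arms miR-29b-1-5p and miR-29c-5p stay near 4.3 and 5.0 on all arrays.

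Single spots of an arm gave the same picture. Of the 40 spots printed for each arm, 36 of miR-29b-3p were free of outlier marks on all arrays, and in all 36 both CL arrays were above both vehicle arrays after normalization. The same held for 33 of 33 spots of miR-29c-3p and for 24 of 29 spots of miR-29a-3p. Spots of 1 array share its RNA and are no replicates of the treatment. By probe and after normalization, the log2 difference of miR-29b-3p was 1.71 with either probe. For miR-29c-3p it was 0.62 with the shorter and 0.58 with the longer probe. For miR-29a-3p it was 0.29 with the shorter and 0.53 with the longer one, while the signals as scanned gave 0.32 and 0.33.

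The differences of the arms were next compared pair by pair. A difference between 2 arms within an array is free of any factor that scales all signals of that array alike, and since the probes differ, only its change between arrays can be read, not its level. The log2 signal of miR-29b-3p minus that of miR-29a-3p was −2.49 (vehicle 1), −3.78 (vehicle 2), −1.70 (CL 1) and −1.79 (CL 2). It was higher on both CL arrays than on both vehicle arrays, and its mean was −3.13 ± 0.91 in vehicle and −1.75 ± 0.06 in CL (SD, n = 2 arrays each), a difference of 1.38. For miR-29b-3p minus miR-29c-3p the difference between the groups was 1.12, and for miR-29c-3p minus miR-29a-3p it was 0.27, again with both CL arrays above both vehicle arrays. Quantile normalization is not such a factor. Without normalization, with median centring or in the authors' log2 table, both CL arrays lay below vehicle 1 for the last pair. Its difference was then 0.11, 0.11 and 0.08, and it was 0.07 with the longest probe only. The same settings gave 1.07 to 1.32 for miR-29b-3p minus miR-29a-3p and 0.99 to 1.21 for miR-29b-3p minus miR-29c-3p. The exact permutation test of each of the 3 pairs gave 0.333, and 0.333 after adjustment over the 3 pairs, the smallest p this test allows with 2 arrays per group, so that it could not show a difference between the arms at the threshold. Leaving out vehicle 2 gave 0.74, 0.59 and 0.15 for the 3 pairs in the same order, and leaving out vehicle 1 gave 2.03, 1.65 and 0.38.

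The size of the miR-29b-3p difference depended on which vehicle array it was read against. Vehicle 1 exceeded vehicle 2 by 1.74 for miR-29b-3p, the largest gap between the vehicle arrays of all 425 tested miRNAs in either direction. For miR-29c-3p the gap was 0.69 and for miR-29a-3p 0.46, while the middle 50% of the tested miRNAs had gaps from −0.31 to 0.20. Between the CL arrays the gaps were 0.02 for miR-29b-3p, −0.11 for miR-29c-3p and −0.07 for miR-29a-3p, against −0.12 to 0.05 for the middle 50%. Which of the vehicle arrays stands nearer to untreated SVF cannot be told from 2 arrays.

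**Figure D3:**
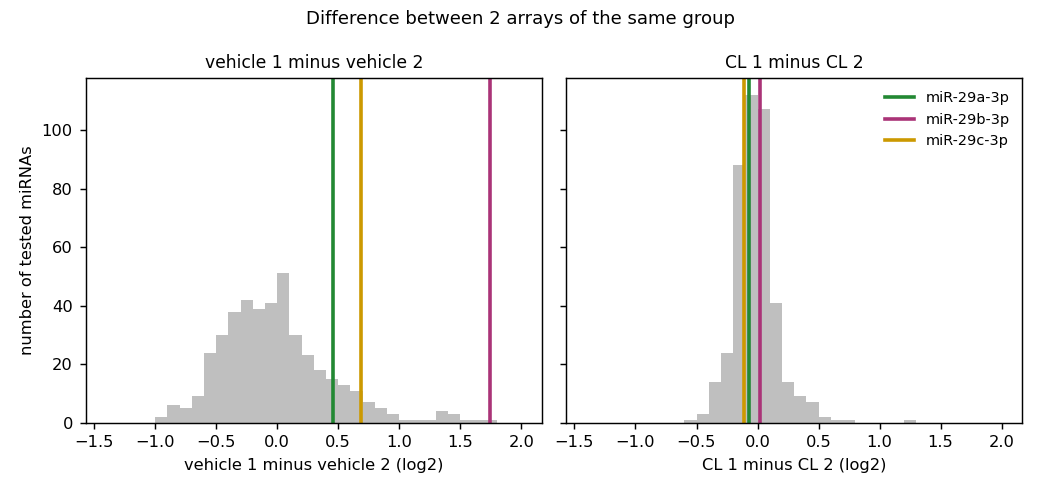
Histograms over the 425 tested miRNAs of the log2 difference between the vehicle arrays (left) and between the CL arrays (right), with lines at the 3 miR-29 3p arms. The miR-29b-3p line stands at 1.74 at the upper end of the vehicle differences and at 0.02 in the middle of the CL differences.

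The 4 arrays lay on 1 slide, where vehicle 1 and CL 1 shared column 3 and vehicle 2 and CL 2 column 4, so that each column gives its own comparison. In column 3 miR-29b-3p was 0.86 higher on CL than on vehicle on the log2 scale, and in column 4 it was 2.58 higher. For miR-29c-3p the values were 0.21 and 1.00, and for miR-29a-3p 0.08 and 0.60. All 3 arms were higher on CL in both columns, and by more in column 4. With the column as a block, limma gave miR-29b-3p a p of 0.00919 and an adjusted p of 0.0639, while 40 of the 425 miRNAs, 9.41%, then passed the adjusted threshold and 35.3% the unadjusted one. For miR-29c-3p and miR-29a-3p limma's adjusted p with this block was 0.142 and 0.272. The rows of the slide coincided with the treatment, row 1 for vehicle and row 2 for CL, and their effects cannot be told apart.

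**Figure D4:**
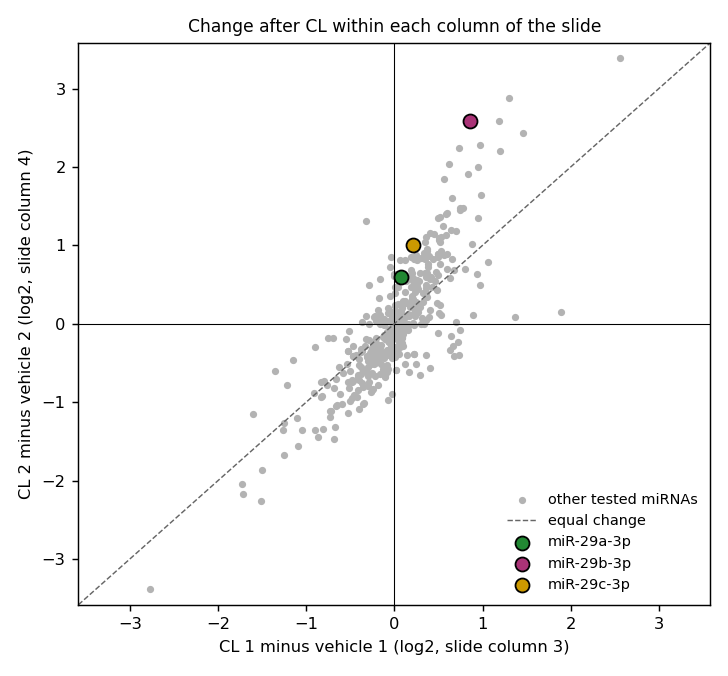
Log2 difference between the CL and the vehicle array of slide column 3 (horizontal) and of column 4 (vertical) for the 425 tested miRNAs, with the 3 miR-29 3p arms marked and a dashed line at equal change. miR-29b-3p lies at 0.86 and 2.58, miR-29c-3p at 0.21 and 1.00 and miR-29a-3p at 0.08 and 0.60, all above the dashed line.

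Leaving out single arrays moved the values in the same manner. Without vehicle 2 the log2 difference was 0.85 for miR-29b-3p, 0.26 for miR-29c-3p and 0.11 for miR-29a-3p, and without vehicle 1 it was 2.59, 0.95 and 0.57. In limma's test the adjusted p of miR-29b-3p was 0.0506 without vehicle 2 and 0.00458 without vehicle 1, where the lone vehicle array was assumed to vary as the CL arrays did. Without CL 1 or CL 2 the log2 difference of miR-29b-3p stayed at 1.71 and 1.73, but limma then took its prior degrees of freedom as infinite and gave all miRNAs 1 SD of 0.32, so that the vehicle gap of miR-29b-3p itself did not enter its p. Without vehicle 1, 230 of the 425 miRNAs passed the adjusted threshold.

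Across all tested miRNAs, the changes ran along with properties of the probes. The longest probes of miR-29a-3p, miR-29b-3p and miR-29c-3p had 20, 21 and 22 bases and a C share of 20.0%, 19.0% and 18.2%, against medians of 17 bases and 31.8% for the tested miRNAs. Over the 425 miRNAs the log2 difference had a Spearman's rho of 0.47 with probe length and −0.43 with C share, and the gap between the vehicle arrays 0.60 and −0.57. These correlations are across miRNAs that share 4 arrays and describe the arrays only. The members thus lay on the side of both medians where the log2 differences and vehicle gaps tended to be higher. When each array's linear trend on the length, C share and G share of the probes was removed, miR-29b-3p measured 9.42 and 8.05 for vehicle 1 and 2 and 10.07 and 10.05 for CL 1 and 2. The CL arrays were still above both vehicle arrays, and the difference was 1.32, with an adjusted p of 0.0822 in limma's test. For miR-29c-3p the difference became 0.13 and for miR-29a-3p 0.03, and the groups of both arms overlapped. Part of a true change can be removed with such a trend, and how much was not tested.

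**Figure D5:**
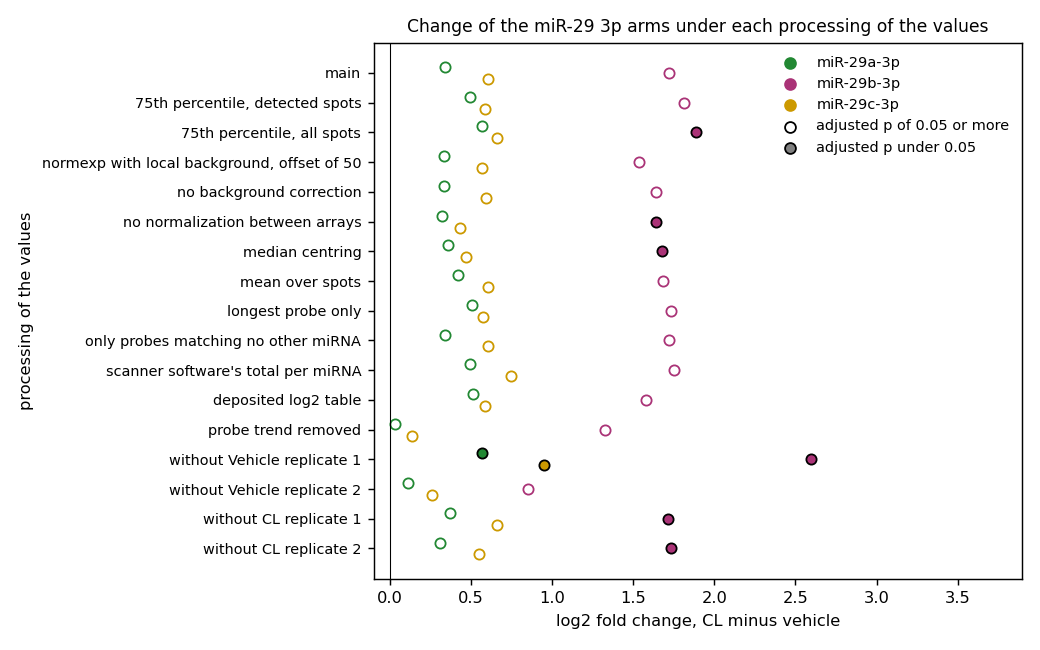
Log2 difference between CL and vehicle for the 3 miR-29 3p arms (horizontal axis) under each processing that changes the values or the arrays used (vertical axis), with filled points where limma's adjusted p is under 0.05. The points of miR-29b-3p lie between 0.85 and 2.59, to the right of the other arms in every row, and those of miR-29a-3p reach down to 0.03. The filled points under median centring and without a CL array rest on a spread set equal for all miRNAs. Those under the 75th percentile of all spots and without normalization rest largely on a spread pooled over all miRNAs.

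Of the 4 passenger arms, 2 were not detected and 2 were dim, and neither of the latter passed a threshold in limma's test on the spot signals. Their mature sequences are printed because their different seeds, in capitals, set them apart from the 3p arms.
miR-29a-5p: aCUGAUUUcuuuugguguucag
miR-29b-1-5p: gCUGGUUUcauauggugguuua
miR-29b-2-5p: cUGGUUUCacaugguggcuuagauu
miR-29c-5p: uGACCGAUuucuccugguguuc
miR-29a-5p and miR-29b-2-5p were not detected on any array, and no fold is given for them. miR-29c-5p had log2 signals of 5.03 and 4.92 for vehicle 1 and 2 and 5.01 and 5.07 for CL 1 and 2. miR-29b-1-5p, from the hairpin next to Mir29a, had 4.30, 4.26, 4.29 and 4.28 on vehicle 1, vehicle 2, CL 1 and CL 2. The groups overlapped for both, and the differences were 0.06 (95% interval −0.26 to 0.39) and 0.00 (95% interval −0.30 to 0.30). Both arms were dim: the 22-base probe of miR-29b-1-5p had median spot signals of 45.4 to 54.2, close to the negative controls, and 1 to 7 of its 10 spots were well above background on an array. Differences of the passenger arms as large as that of miR-29b-3p lie outside these intervals, but how well signals this close to background show a change was not tested.

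The miRNAs whose pattern over the 4 arrays was most like that of each member were found by Euclidean distance between mean-centred log2 signals over all 4 arrays. Nearest to miR-29b-3p were miR-376a-3p (distance 0.24), miR-136-5p (0.26), miR-101c (0.29), miR-142-3p (0.38) and miR-142-5p (0.44), against a median distance of 2.15 over all other miRNAs. Their log2 differences were 1.62, 1.89, 1.48, 2.09 and 1.94, and vehicle 1 exceeded vehicle 2 by 1.34 to 1.62 in each. Such values follow from the selection, since these miRNAs were picked for their likeness to miR-29b-3p on the same 4 arrays. miR-142 is known as a miRNA of blood leukocytes, and miR-376a and miR-136 belong to the imprinted cluster of Dlk1 and Dio3. Nearest to miR-29c-3p were miR-324-5p (0.09), miR-30e-5p, miR-434-3p, miR-410-3p and miR-434-5p (0.14), and nearest to miR-29a-3p were miR-431-5p (0.06), miR-350-3p, miR-382-3p, miR-380-3p and miR-411-3p (0.10). The same imprinted cluster holds miR-434 and miR-410, and also miR-431, miR-382, miR-380 and miR-411. Likeness to miRNAs of this cluster was thus not particular to miR-29b-3p. Within the family, miR-29a-3p and miR-29c-3p were 0.31 apart, while miR-29b-3p was 1.66 from miR-29a-3p and 1.35 from miR-29c-3p. By this measure miR-29a-3p, whose hairpin neighbours Mir29b-1, was nearer to miR-29c-3p of the other chromosome than to miR-29b-3p, which comes from both clusters. The distance is not scaled, so that arms with small changes lie close together. The miR-29a-3p probes also have 1 mismatch to miR-29c-3p, and how much signal these arms share was not tested.

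Other miRNAs tied to matrix and fibrosis were read beside the family. Of 11 miRNAs known to promote fibrosis, all were tested. By limma's unadjusted p, 6 were higher after CL, 1 was lower and 4 were not called, with a median log2 difference of 0.72 against −0.01 over all tested miRNAs, of which 18.6% were higher and 16.2% lower. None passed the adjusted threshold without the block, and 4 did with it, all higher, where 9.41% of all tested miRNAs passed. These 4, miR-199a-3p, miR-199a-5p, miR-199b-5p and miR-214-3p, are also among the 6 higher ones. They include both arms of miR-199a and are not 4 separate results. The list was chosen with earlier results of these data known. Of 21 miRNAs known to oppose fibrosis, the list nearest in role to miR-29, 17 were tested, 5 were higher, 2 were lower and 10 were not called, against 34.8% called over all tested miRNAs, with a median of 0.34. The share called in this list was near that of all miRNAs, and no member passed the adjusted threshold with or without the block. The untested ones were miR-200a-3p, miR-200c-3p, miR-141-3p and miR-429-3p.

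The brightest of the promoting list in vehicle were miR-21a-5p, a miRNA known to strengthen TGF-β signalling, and the miR-199 arms of mesenchymal cells. miR-21a-5p had log2 signals of 11.94 and 10.99 for vehicle 1 and 2 and 12.53 and 12.40 for CL 1 and 2, a difference of 1.01 with an adjusted p of 0.132 in limma's test. miR-199a-3p had 10.68 and 10.07 in vehicle and 11.43 and 11.52 in CL, and miR-199b-5p 10.48 and 9.43 in vehicle and 11.44 and 11.43 in CL, each with an adjusted p of 0.103 in that test. All 3 had both CL arrays above both vehicle arrays, and in all 3 vehicle 2 was lower than vehicle 1. The brightest of the opposing list were miR-26a-5p, miR-26b-5p and miR-30a-5p. Their log2 differences were 0.12, 0.08 and −0.44 with adjusted p-values of 0.578, 0.759 and 0.107 in limma's test. Of the other opposing miRNAs, miR-101a-3p, with signals of 8.53 and 7.10 for vehicle 1 and 2 and 9.15 and 9.14 for CL 1 and 2, differed by 1.33 and had a vehicle gap in the direction of that of miR-29b-3p; it was named after its values were seen.

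Markers of the cell types of the SVF were read beside the family at limma's unadjusted threshold, which 18.6% of all tested miRNAs passed as higher and 16.2% as lower. No marker passed the adjusted threshold without the block. With it, 4 fibroblast and mesenchymal, 2 red cell and 2 leukocyte markers passed as higher. As lower, 1 leukocyte and 1 endothelial marker passed, while no mural, epithelial, mesothelial or muscle marker did. Of all tested miRNAs 9.41% passed with the block. All 4 miRNAs of fibroblasts and mesenchymal cells, miR-199a-3p, miR-199a-5p, miR-199b-5p and miR-214-3p, were higher after CL at the unadjusted threshold, and the same 4 belong to the promoting list above. Their summed level on the log2 scale was 11.73 and 10.98 for vehicle 1 and 2 and 12.59 and 12.62 for CL 1 and 2. Of the endothelial arms, miR-126-3p and its partner miR-126-5p, both were lower after CL, with a summed level of 13.92 and 13.79 in vehicle and 12.32 and 12.65 in CL. Of 4 leukocyte markers, miR-142-3p and miR-142-5p were higher, miR-150-5p was lower and miR-223-3p was not called, with summed levels of 11.16 and 10.75 in vehicle and 11.73 and 11.69 in CL. The 3 red cell markers on the array under their listed names, miR-451a, miR-144-3p and miR-144-5p, were higher, with summed levels of 12.998 and 13.22 in vehicle and 14.04 and 13.80 in CL. With the probe trend removed their log2 differences went from 0.73 to 0.23 for miR-451a, from 2.97 to 2.61 for miR-144-3p and from 0.92 to 0.37 for miR-144-5p. The called markers of the other cell types kept their direction with the trend removed. Of the mural markers miR-145a-5p was lower and miR-143-3p was not called, with summed levels of 9.06 to 9.31 in vehicle and 8.61 to 8.73 in CL. The 3 muscle markers were not called, with 7.17 to 8.15 in vehicle and 7.92 to 8.10 in CL. Of 6 epithelial and mesothelial markers 2 were tested, miR-203-3p, which was lower, and miR-200b-3p, which was not called, and the liver marker miR-122-5p was not tested. The part of these differences in the miR-29 values was not tested.

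The scanner software detected 431 and 420 miRNAs in vehicle and 386 and 403 in CL, and no spot was saturated. Every interval given rests on 2 arrays per group, and its width also depends on the spread of the miRNA. The standard error was 0.60 for miR-29b-3p and 0.11 for miR-29b-1-5p. The prior made the first smaller than the arrays of miR-29b-3p alone would give. It made the second larger, since miR-29b-1-5p had SDs of only 0.025 in vehicle and 0.007 in CL.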

How the data were processed

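The authors deposited 1 scanner output per array, made with Feature Extraction 10.7.1.1, with the linear intensity of each spot and totals per probe and miRNA, and a table of log2 signals normalized between arrays, in which undetected miRNAs stand at the lowest value of their array. The medians of its columns were −3.31, −3.30, −3.20 and −3.26. That table is not centred per miRNA and runs in the direction of the signal. For the study's arrays its methods give robust multi-array analysis and SAM in R, without details for this table. SAM and a t-test are alternatives here.

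Starting from these intensities, background was corrected by normexp on the mean signal of all spots (limma 3.58.1, R 4.3.3), without local background or offset. Control and outlier spots were then dropped, quantile normalization was applied, and median polish gave 1 log2 signal per miRNA and array. Groups were taken from the sample labels. CL was compared with vehicle by limma's lmFit and eBayes, with two-sided p-values adjusted by Benjamini-Hochberg over 425 of 1247 miRNAs. The code was tested on simulated data. Named miRNAs are the members, their passenger arms, any miRNA with their seed, the 5 nearest patterns of each member, the 3 brightest of each fibrosis list and the tested cell type markers. The members and lists were chosen with earlier results of these data known. The alternatives changed background correction, normalization, summary, filter and test, or left out an array. p-values measure the spread between these samples only. Deviations from the group means correlated between arrays of the same number with r = 0.12 over the tested miRNAs.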

Additional observations from a re-analysis of the deposited data

How the results depend on the processing

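miR-29a-3p, miR-29b-3p and miR-29c-3p kept their direction in all 23 alternatives, with log2 differences of 0.03 to 0.57, 0.85 to 2.59 and 0.13 to 0.95. miR-29b-3p passed limma's adjusted threshold with 1.89 under the 75th percentile of all spots (adjusted p = 0.0410), with 1.64 without normalization (0.0390) and with 1.68 under median centring (3.20e-05), where limma's prior degrees of freedom were infinite and all miRNAs were given 1 SD of 0.34 in place of their own spread. Under the 75th percentile of all spots and without normalization the prior had 7.32 and 8.98 degrees of freedom, against 2.41 in the main fit. The arrays gave 2 residual ones in each. In those 2 calls the spread pooled over all miRNAs thus weighed more than that of miR-29b-3p itself. The range of its adjusted p over all alternatives reached 0.362, under SAM. Its unadjusted p was 0.187 in the methods' t-test and 0.150 in SAM. In limma's test it was 0.100 with the deposited table, 0.0901 with the scanner totals and 0.0670 without the filter. It was 0.0655 with local background and 0.0527 without background correction. The other alternatives kept it under 0.05. With 1 array left out, miR-29b-3p ranged from 0.85 to 2.59, miR-29c-3p from 0.26 to 0.95 and miR-29a-3p from 0.11 to 0.57; miR-29b-3p was then past the threshold without vehicle 1, CL 1 or CL 2, and the other arms without vehicle 1. The lone array of a group was assumed to vary as the other group did, and without CL 1 or CL 2 the spread was again 1 SD for all miRNAs (0.32), so that these calls say nothing about the spread of miR-29b-3p itself. The replicate block, which is the slide column, changed no call of an arm and moved the number of miRNAs past the adjusted threshold from 0 to 40; the labels do not say that the numbers pair the arrays. That number was 53 and 92 with the 75th percentile of detected and of all spots, 64 without normalization, 44 with median centring, 27 with the scanner totals, 2 with limma's intensity trend, 7 with the deposited table, 51 with the probe trend removed, 60 with that and the replicate block (chosen after seeing the data), and 1 to 230 with 1 array left out. Without adjustment, 148 became 91 with median centring, 60 with SAM, 52 with the methods' t-test and 61 to 263 with 1 array left out. Calls higher and lower split as 79 and 69, but as 75 and 98 with the 75th percentile of detected spots, 46 and 88 without normalization, where the median moved to −0.12, and 46 and 62 with the deposited table. miR-29b-1-5p, at 0.00, changed sign to −0.14 and −0.089 with the 75th percentile of detected and of all spots, −0.016 with local background, −0.00053 without background correction, −0.070 without normalization, −0.024 with median centring, −0.039 with the mean over spots, −0.36 with the probe trend removed, with or without the block, and −0.017 to 0.019 with 1 array left out. miR-29c-5p changed sign to −0.036 without normalization, −0.0019 with median centring, −0.12 with the deposited table and −0.25 with the probe trend removed, with or without the block. The cause was not tested.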

Other observations

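The scanner software's total per miRNA named a passenger arm with the signal of a 3p arm. For miR-29b-1-5p the total was 3583 and 2379 for vehicle 1 and 2 and 3418 and 3917 for CL 1 and 2. These values equal the total of its own longest probe (3.55, 2.95, 2.29 and 3.19) plus the total of miR-29a-3p (3579, 2376, 3416 and 3914), to within 0.0038. For miR-29c-5p this was so on CL 1 alone, where its total of 686 equals 7.47 from its own longest probe plus 679 of miR-29c-3p, while it was 15.4, 11.7 and 13.2 on vehicle 1, vehicle 2 and CL 2. After log2 and quantile normalization of the totals of all miRNAs, the difference of miR-29c-5p between CL and vehicle was 3.91, against 0.06 from its spots. How the totals came to hold another arm was not tested.

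In the deposited log2 table miR-29b-1-5p stood at −1.44 and −1.34 on the vehicle arrays and at 1.85 and 0.58 on the CL arrays, a difference of 2.60, while the totals of its own longest probe were 3.55 and 2.95 for vehicle and 2.29 and 3.19 for CL. Limma on that table gave this arm an unadjusted p of 0.0136 and an adjusted p of 0.180. It was among the faintest detected miRNAs of each array in that table, at position 15 of 431, 12 of 420, 2 of 386 and 15 of 403 from the faintest. In the same table the members stood at 11.34, 11.07, 11.76 and 11.66 for miR-29a-3p, 9.53, 7.84, 10.24 and 10.28 for miR-29b-3p and 9.29, 8.62, 9.53 and 9.56 for miR-29c-3p, on vehicle 1, vehicle 2, CL 1 and CL 2. For all 3 the CL arrays were above both vehicle arrays there too.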
